A study of Mus musculus with 12 samples.

Results

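The 10 genes described here encode heat shock proteins of the cytosol and the mitochondrion. They were chosen by name among the 55487 genes of the count table: Hspa1a, Hspa1b, Hsph1, Dnajb1, Hspb1, Hspa8, Hsp90aa1, Bag3, Hspd1 and Hspe1. The count table covered 12 mouse kidney cortex libraries in 4 groups of 3. Ctrl (labelled WT, Sham) were ALR flox/flox mice, and PT-KO (labelled ALR knockdown, Sham) carried the same floxed alleles with a Cre transgene driven by the Ggt1 promoter, which removes ALR (gene Gfer) in proximal tubule cells and leaves the other cells of the cortex unedited. Ctrl+I/R and PT-KO+I/R were the same genotypes after bilateral renal ischemia of 22 min and 24 h of reperfusion. The mice were 6 to 8 weeks old on a C57BL/6 background. Whether each library is 1 animal is not stated, so the p-values measure the spread between these libraries.

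Heat shock proteins are chaperones that bind unfolded proteins, and most are made in larger amounts when proteins are damaged by heat, hypoxia or oxidants. HSF1 drives the response by binding heat shock elements, which are runs of short inverted repeats near the start of its target genes. In the ischemic kidney the inducible members are known as early stress genes of the tubule, while the constitutive members and the mitochondrial chaperonin are abundant in healthy proximal tubule cells, which are rich in mitochondria. Hspa1a and Hspa1b encode inducible HSP70, Hspa8 encodes constitutive HSP70, and Hsph1 and Dnajb1 encode a nucleotide exchange factor and a J-domain partner of HSP70. Hsp90aa1 encodes the inducible cytosolic HSP90. Hspb1 encodes the small heat shock protein HSP25, and Bag3 encodes the co-chaperone that links HSP70 to small heat shock proteins and to autophagy. Hspd1 and Hspe1 encode HSP60 and HSP10, the 2 parts of the mitochondrial chaperonin.

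Promoter sequences are shown for the neighbouring pairs Hspd1 and Hspe1 and Hspa1a and Hspa1b, and for Hspb1. Hspb1 had the widest range of levels on the log2 scale. The sequences are shown because HSF1 sites are the feature by which these genes are usually grouped. All positions are on GRCm38 (RefSeq, GRCm38.p6), on the strand of the gene, and capitals mark matches to the 2-unit heat shock element GAANNTTC or TTCNNGAA, searched on both strands. RefSeq promoter windows were used for 8 of the 10 genes, and those of Hspa8 and Hsp90aa1 were not analysed here. Hspd1 and Hspe1 lie head to head, and their inner starts are separated by the 215 bases chr1:55087933-55088147. The longest run of heat shock units found in these windows lay between them, at chr1:55088053-55088082 on the plus strand, and it is also exonic in a longer Hspd1 transcript.
Hspd1 and Hspe1, site between the starts: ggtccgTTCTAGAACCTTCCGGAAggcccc
The upstream windows of Hspb1 (chr5:135887669-135887918, plus strand), Hspa1a (chr17:34972157-34972406, minus strand) and Hspa1b (chr17:34959239-34959488, minus strand) each end at the base before the start.
Hspb1: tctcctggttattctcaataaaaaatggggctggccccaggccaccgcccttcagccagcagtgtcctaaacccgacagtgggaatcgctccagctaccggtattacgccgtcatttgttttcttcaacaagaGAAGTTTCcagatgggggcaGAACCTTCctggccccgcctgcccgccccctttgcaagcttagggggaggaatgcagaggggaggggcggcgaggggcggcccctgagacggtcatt
Hspa1a: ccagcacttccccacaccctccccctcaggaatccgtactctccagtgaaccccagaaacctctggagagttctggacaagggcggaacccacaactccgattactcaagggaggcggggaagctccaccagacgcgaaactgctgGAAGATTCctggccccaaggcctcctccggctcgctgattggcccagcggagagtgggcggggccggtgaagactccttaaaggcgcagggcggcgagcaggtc
Hspa1b: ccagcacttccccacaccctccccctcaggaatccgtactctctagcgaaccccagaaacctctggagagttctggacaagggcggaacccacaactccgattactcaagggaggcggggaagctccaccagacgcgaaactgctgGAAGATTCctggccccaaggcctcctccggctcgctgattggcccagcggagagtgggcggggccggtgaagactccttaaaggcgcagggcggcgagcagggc

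The site between Hspd1 and Hspe1 held 4 units in alternating orientation, at positions -89 to -72 from the Hspe1 start. Its 3-unit form, GAANNTTCNNGAA or TTCNNGAANNTTC, occurred in 0.603% of the 32851 promoter windows of 300 bases in the genome. The same form lay in Hsph1 just after its start, shown with its neighbouring bases at chr5:149636284-149636304, minus strand.
Hsph1, site after the start: cagaTTCTGGAAAGTTCtcct
Hspb1 held a pair of separate 2-unit matches, and Hspa1a and Hspa1b held 1 each. Bag3 held 1 after its start and the Dnajb1 windows held none. A 2-unit match occurred in 15.1% of all windows, so a single one says little. The upstream windows of Hspa1a and Hspa1b were identical at 247 of 250 bases, or 98.8%. A match is a description of letters, not evidence of binding, and no match says nothing of HSF1 elsewhere.

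The libraries held 12165089 to 23123693 counts and 20416 to 22210 genes with a count. Ctrl libraries 1 and 2 carried 22402 and 19755 counts of Xist and 0 counts of 4 Y-linked genes. The other 10 libraries had at most 11 Xist counts and 3109 to 5251 Y-linked counts. Every comparison with Ctrl is thus also one of a group with 2 female libraries against an all-male group, and sex and I/R or genotype cannot be told apart there, except through Ctrl library 3 alone. The third Ctrl library was grouped by the name of its column, whose number appears in no sample title. The targeted gene, Gfer, was not lower in the libraries labelled knockdown: it was at 12.7, 11.4 and 14.4 CPM in Ctrl and at 9.97, 17.1 and 15.0 CPM in PT-KO. After I/R it was at 15.3, 20.0 and 17.6 CPM in Ctrl and at 21.6, 22.8 and 21.6 CPM in PT-KO, a log2 difference of 0.32 with no overlap (edgeR adjusted p = 0.0723). PT-KO is therefore used here as the labels' name of a group, and lower Gfer counts were not seen in it. Counts over the whole gene need not drop when only part of it is deleted, and the deleted exons were not examined here. CPM is a library-size-scaled count, here with TMM factors over the 12 libraries. Proximal tubule markers summed to 12910 to 13800 CPM in Ctrl, 12250 to 13970 in PT-KO, and after I/R to 3569 to 8665 in Ctrl and 2187 to 2758 in PT-KO. In bulk cortex, fewer cells of a type and less RNA per cell cannot be told apart.

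Per length of transcript, the constitutive and mitochondrial members dominated. In Ctrl, Hspd1 was at 654 ± 47.6 TPM (mean ± SD, n = 3; TPM is the count scaled for exon length and library size), and Hspa8 was at 648 ± 92.0 TPM. Hspe1 followed at 236 ± 8.63 TPM and Hsp90aa1 at 184 ± 17.1 TPM. The lower members were Hsph1 (48.4 ± 2.39 TPM), Dnajb1 (32.2 ± 2.0), Bag3 (24.1 ± 1.03), Hspa1b (14.1 ± 2.3), Hspb1 (13.0 ± 4.4) and Hspa1a (7.66 ± 1.39). In this order the ranges of Hspd1 and Hspa8 overlapped, those of Hspb1 and Hspa1b overlapped, and those of Hspb1 and Hspa1a overlapped, while the other neighbouring pairs were separate. After I/R the order changed most for Hspb1, which in TPM was the least abundant but one in Ctrl and stood at 134 ± 4.94 TPM in PT-KO+I/R, beside Hspe1 at 133 ± 6.55. Hspd1 had the highest mean in all 4 groups. It was at 718 ± 29.7 TPM in PT-KO, and after I/R at 653 ± 80.2 in Ctrl and 563 ± 19.9 in PT-KO. After I/R the ranges of Hspd1 and Hspa8 overlapped, at 560 to 705 and 520 to 742 TPM in Ctrl. In PT-KO after I/R they were 540 to 577 and 523 to 552 TPM.

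**Figure D1:**
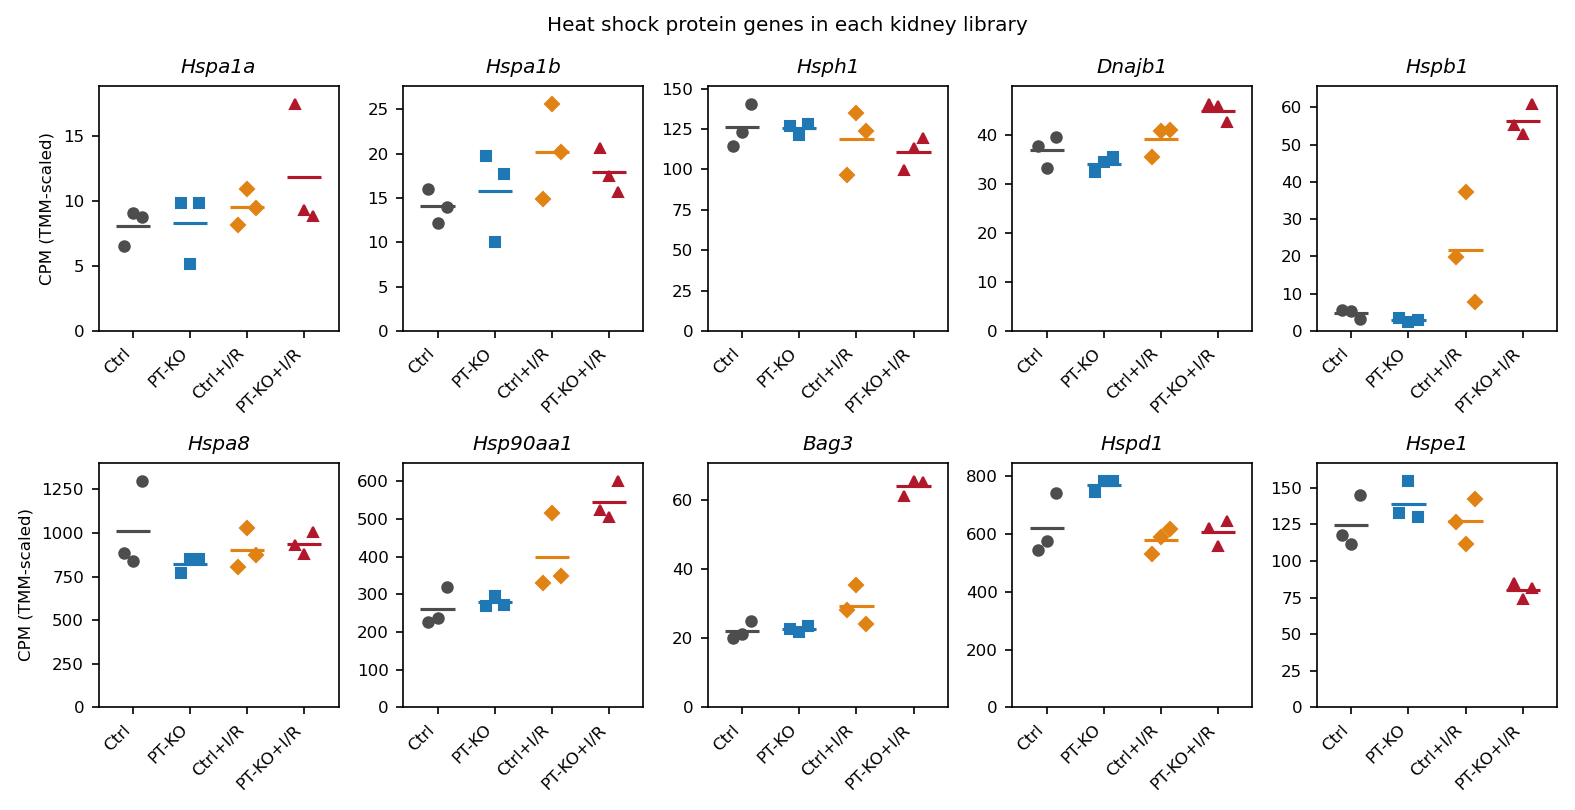
Level of each heat shock protein gene in every library, in TMM-scaled CPM on a linear axis from 0, with 3 libraries per group as points and the group mean as a line. Hspb1 and Bag3 were highest in the 3 PT-KO+I/R libraries and Hspe1 was lowest there, with no overlap with any other group, while Hspa1a and Hspa1b overlapped between groups.

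To ask how each genotype responded to I/R, the sham and injured groups were compared within Ctrl and within PT-KO, with the quasi-likelihood test of edgeR over all genes that passed its low-count filter and Benjamini-Hochberg adjustment. All 10 genes passed the filter in every comparison. In Ctrl kidneys, I/R raised 1 of the 10 genes, Hspb1, and lowered none, where 19.4% of the 15567 genes tested were called, 11.4% higher and 7.97% lower. In PT-KO kidneys, 6 of the 10 changed, where 65.5% of the 15155 genes tested were called: Hspb1, Bag3, Hsp90aa1 and Dnajb1 rose, as did 32.9% of all genes tested, and Hspd1 and Hspe1 fell, as did 32.7%. Over both directions, the share of members called was not above that of all genes in either genotype, and the 4 of 10 that rose in PT-KO were near the 32.9% of all genes. The median log2 fold change of the 10 was 0.16 in Ctrl and 0.28 in PT-KO, against -0.01 and 0.01 over all genes.

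Among all genes, 1778 were called higher and 1241 lower after I/R in Ctrl, and the split was 2346 to 766 when library totals replaced TMM. With library totals the median log2 fold change of all genes was 0.11 in Ctrl, against -0.01 with TMM, and 0.06 in PT-KO, against 0.01 with TMM. The markers of injured proximal tubule (Havcr1, Lcn2, Krt20 and Vcam1) moved with the groups as well, from 12.3 to 22.3 CPM summed in Ctrl and 8.67 to 12.4 in PT-KO to 567 to 2652 after I/R in Ctrl and 4809 to 6324 after I/R in PT-KO. All 4 were called higher after I/R in both genotypes, but between the injured groups 3 were higher in PT-KO+I/R and Vcam1 was lower, at 11.0 against 28.1 CPM. Immediate-early genes of handling and stress summed to 95.9 to 164 CPM in Ctrl, 143 to 183 in PT-KO, and after I/R to 114 to 413 in Ctrl and 318 to 469 in PT-KO. Other cell type markers moved too, and PT-KO+I/R stood apart in several sums: 4 endothelial markers were at 337 to 341 CPM there and 239 to 272 elsewhere, 4 macrophage markers at 41.4 to 52.0 and 61.1 to 96.1, and 4 neutrophil markers at 40.1 to 60.1, against 8.16 to 35.9 in Ctrl+I/R and 0.736 to 2.27 in the sham groups. Of the macrophage markers, 3 were called lower in PT-KO+I/R than Ctrl+I/R and 1, Cd68, higher, at 26.2 against 15.5 CPM. The 4 markers of fibroblasts and smooth muscle were highest in Ctrl+I/R, at 303 to 320 CPM against 87.2 to 168 elsewhere. The part of tissue makeup or handling in the members' changes was not tested.

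Hspb1, which encodes HSP25, a small heat shock protein that guards actin filaments, had the widest range of the 10 genes on the log2 scale. It was at 5.53, 5.26 and 3.27 CPM in Ctrl, at 3.41, 2.37 and 3.01 in PT-KO, and after I/R at 20.0, 37.4 and 7.78 in Ctrl and 55.3, 53.0 and 60.9 in PT-KO. All injured libraries stood above all sham libraries, and the 3 Ctrl+I/R libraries were spread over the gap between Ctrl and PT-KO+I/R. After I/R it rose in Ctrl by 2.22 on the log2 scale (SE 0.52, edgeR adjusted p = 0.0296, 4.64-fold) and in PT-KO by 4.27 (SE 0.15, edgeR adjusted p = 3.59e-08, 19.2-fold). The size of the rise in Ctrl depended on single libraries. It ran from 1.60 (edgeR adjusted p = 0.055) without Ctrl+I/R library 2 to 2.61 (0.00425) without library 4. The call was lost without each of the other 5 libraries in turn, with adjusted p up to 0.0926. Over all genes, 379 to 2227 were called in those 5 fits, against 3019 with all libraries. The 2 female Ctrl libraries were above the male one, and with sex as a covariate the log2 rise was 2.73 (edgeR adjusted p = 0.0281). Within Ctrl+I/R, library 2 was highest for Hspb1 and also for Bag3, Hsp90aa1, Hspa8, Hsph1, Hspa1a and Hspa1b, while library 4 was highest for Dnajb1, Hspd1 and Hspe1.

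Bag3, the partner of HSPB1-family proteins in selective autophagy, separated the PT-KO+I/R group from the rest. It was at 20.2, 21.4 and 24.9 CPM in Ctrl, 22.7, 21.8 and 23.4 in PT-KO, and after I/R at 28.1, 35.5 and 24.0 in Ctrl and 61.0, 65.5 and 65.3 in PT-KO. The PT-KO+I/R libraries were well above all others, and Ctrl+I/R overlapped Ctrl. It rose in PT-KO after I/R by 1.49 on the log2 scale (SE 0.09, edgeR adjusted p = 3.89e-07, 2.81-fold). In Ctrl the log2 difference was 0.40 (SE 0.16, edgeR adjusted p = 0.108), and leaving out Ctrl+I/R library 4 brought the adjusted p to 0.043. It was also called in Ctrl in a single fit to the 12 libraries and with the replicate block. That block compares only female Ctrl libraries 1 and 2 with male Ctrl+I/R libraries 1 and 2. Sex and I/R cannot be told apart in it.

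Hsp90aa1, the stress-inducible HSP90 that folds kinases and steroid receptors, was at 226, 238 and 319 CPM in Ctrl, 270, 295 and 272 in PT-KO, and after I/R at 331, 515 and 349 in Ctrl and 524, 506 and 601 in PT-KO. The injured libraries did not overlap the sham libraries in either genotype. It rose in PT-KO by 0.96 on the log2 scale (SE 0.10, edgeR adjusted p = 1.66e-05, 1.94-fold). In Ctrl the log2 difference was 0.61 (SE 0.21, edgeR adjusted p = 0.0805). It was past the threshold with DESeq2, with library totals, with the replicate block and in a single fit to the 12 libraries. The block fit compares only female Ctrl libraries 1 and 2 with male Ctrl+I/R libraries 1 and 2. Ctrl library 3, the male one, was the highest of the sham libraries, and with sex as a covariate the log2 difference in Ctrl was 0.32 (edgeR adjusted p = 0.356). Groups without overlap were found in 43.7% of all genes tested in Ctrl, and here for Hspb1 and Hsp90aa1, and in 70.8% in PT-KO, and here for 8 of the 10 genes.

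**Figure D2:**
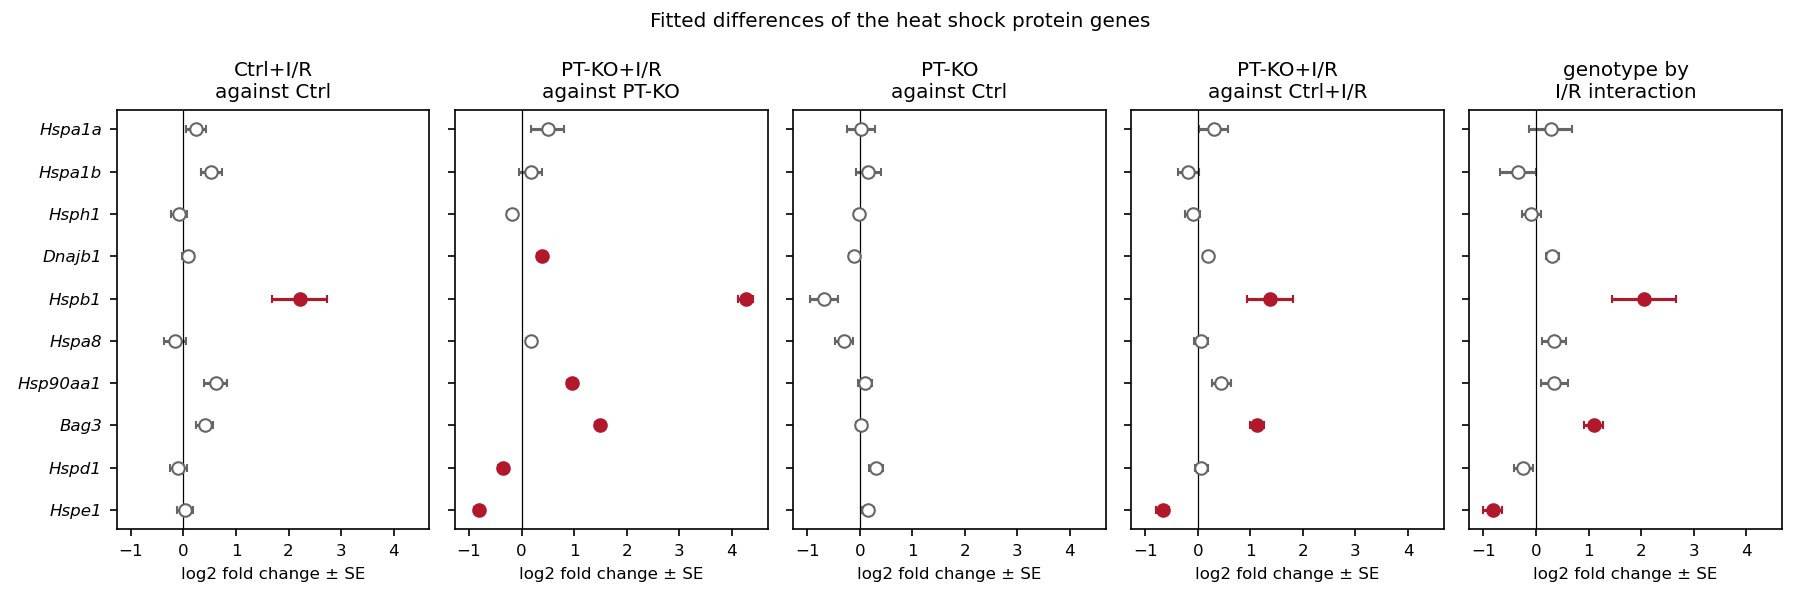
Fitted log2 fold change of each heat shock protein gene, with bars of 1 SE, in the 4 comparisons of groups and in the genotype by I/R interaction. Filled points had an edgeR adjusted p under 0.05, and Hspb1, Bag3 and Hspe1 are filled in both comparisons at the right as well as in PT-KO after I/R.

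Of the 5 members of the HSP70 system, Dnajb1 alone was called after I/R, in PT-KO. Dnajb1, which delivers clients to HSP70, was at 37.8, 33.3 and 39.6 CPM in Ctrl, 32.4, 34.5 and 35.6 in PT-KO, and after I/R at 35.6, 40.8 and 41.1 in Ctrl and 46.3, 45.9 and 42.7 in PT-KO. It rose after I/R in PT-KO by 0.39 on the log2 scale (SE 0.09, edgeR adjusted p = 0.00283), and its 3 PT-KO+I/R libraries were above all others. Hspa8, the constitutive HSP70, was at 887, 840 and 1300 CPM in Ctrl, 770, 851 and 849 in PT-KO, and after I/R at 803, 1026 and 876 in Ctrl and 930, 880 and 1005 in PT-KO. Its spread within Ctrl came from library 3 alone, which was the highest of all 12. The log2 difference after I/R was 0.18 in PT-KO (SE 0.10, edgeR adjusted p = 0.117) and -0.16 in Ctrl (SE 0.21, edgeR adjusted p = 0.616), and with sex as a covariate it was -0.53 in Ctrl (edgeR adjusted p = 0.0501). With library totals Hspa8 was called higher in PT-KO. Hsph1, the exchange factor of HSP70, was at 114.6 to 140.4 CPM in Ctrl, 121.5 to 128 in PT-KO, and after I/R at 96.7 to 134.9 in Ctrl and 99.9 to 119.6 in PT-KO. Its log2 difference after I/R was -0.19 in PT-KO (edgeR adjusted p = 0.0963) and -0.08 in Ctrl (0.71).

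The inducible HSP70 genes, the classical heat shock transcripts, stayed low at 24 h. Hspa1a was at 6.53, 9.06 and 8.76 CPM in Ctrl, 9.84, 5.17 and 9.82 in PT-KO, and after I/R at 8.17, 10.9 and 9.49 in Ctrl and 17.5, 9.30 and 8.83 in PT-KO. Only PT-KO+I/R library 2 stood above the range of the other groups. Hspa1b was at 16.0, 12.2 and 14.0 CPM in Ctrl, 19.8, 10.1 and 17.7 in PT-KO, and after I/R at 14.9, 25.6 and 20.2 in Ctrl and 20.6, 17.5 and 15.7 in PT-KO, and all 4 groups overlapped. The log2 difference of Hspa1a after I/R was 0.24 in Ctrl (SE 0.19, edgeR adjusted p = 0.392) and 0.50 in PT-KO (SE 0.31, 0.182). For Hspa1b it was 0.53 in Ctrl (SE 0.20, 0.102) and 0.17 in PT-KO (SE 0.23, 0.529).

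These 2 genes lie next to each other on chromosome 17 (Hspa1a at chr17:34969190-34972156 and Hspa1b at chr17:34956436-34959238, both on the minus strand and each a single exon). They are near-identical: 47.1% of the stretches of 100 bases in Hspa1a transcripts also occurred in Hspa1b, so reads may have been split between them by the counting, which is not given in the sources used here. Hspa1a took 29.0% to 45.8% of their summed counts over the 12 libraries. With the counts summed to 1 gene, no comparison called it. Shared stretches also touched Hspb1 (44.0%, mainly with Hsp25-ps1), Hsp90aa1 (38.0%), Hspa8 (28.5%), Hspd1 (23.9%) and Hspe1 (11.0%), and none were found in Hsph1, Dnajb1 and Bag3. Hsp25-ps1 held 0 to 7 counts, and Hspd1-ps3 held 183 to 301 counts, or 1.74% to 3.61% of those of Hspd1. The main partner of Hspe1, AC117239.2, held 34 to 181 counts, at most 6.3% of those of Hspe1 in a library. Gm15459 held at most 3.55% of the counts of Hspa8 and Gm12346 at most 2.21% of those of Hsp90aa1, while Gm10501 held 20 to 55 counts, up to 41.5% of those of the low Hspa1a.

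Both mitochondrial chaperonin genes fell after I/R in PT-KO, and Hspe1 had the larger log2 change. Hspd1, the HSP60 ring subunit (chr1:55077835-55088243, minus strand), was at 546, 577 and 741 CPM in Ctrl, 746, 784 and 785 in PT-KO, and after I/R at 532, 589 and 619 in Ctrl and 621, 559 and 645 in PT-KO. The 3 PT-KO libraries were the highest of the 12, and the other 3 groups overlapped. It fell after I/R in PT-KO by 0.35 on the log2 scale (SE 0.09, edgeR adjusted p = 0.00714), and its log2 difference in Ctrl was -0.10 (SE 0.16, edgeR adjusted p = 0.704). Hspe1, the HSP10 cap of the ring (chr1:55088132-55091307, plus strand), was at 118, 112 and 145 CPM in Ctrl, 133, 155 and 130 in PT-KO, and after I/R at 127, 112 and 142 in Ctrl and 84.9, 73.7 and 81.6 in PT-KO. The PT-KO+I/R libraries were below all others. It fell after I/R in PT-KO by 0.81 on the log2 scale (SE 0.10, edgeR adjusted p = 4.87e-05), to 0.572 of its level, and its log2 difference in Ctrl was 0.03 (SE 0.15, edgeR adjusted p = 0.893). All 6 calls in PT-KO were kept when each library was left out in turn. The ends of the annotated genes overlap on opposite strands, and whether the counting used strand is not given in the sources used here.

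Since the pair is transcribed from a shared region, the ratio of its counts was computed, a choice made after the values were seen. Hspe1 counts per 100 Hspd1 counts were 21.5, 19.4 and 19.5 in Ctrl, 17.8, 19.7 and 16.5 in PT-KO, and after I/R 23.9, 19.0 and 23.0 in Ctrl and 13.7, 13.2 and 12.7 in PT-KO. The PT-KO+I/R libraries were below all 9 others. The means were 13.2 ± 0.512 in PT-KO+I/R, 18.0 ± 1.62 in PT-KO and 21.9 ± 2.62 in Ctrl+I/R (SD, n = 3). Both differences had a two-sided exact permutation p of 0.1, the smallest that 3 against 3 libraries allow, and 0.2 after Benjamini-Hochberg adjustment over the 4 comparisons. The exact permutation p was 0.4 for Ctrl+I/R against Ctrl and 0.3 for PT-KO against Ctrl.

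**Figure D3:**
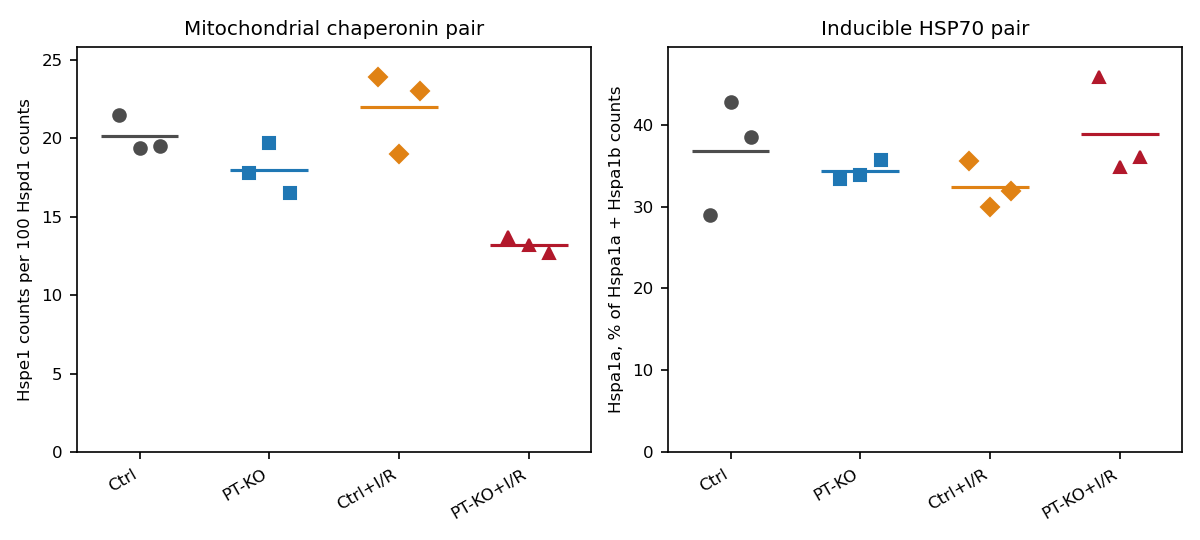
Ratios within the 2 neighbouring gene pairs in each library, as Hspe1 counts per 100 Hspd1 counts (left) and Hspa1a as a percentage of Hspa1a and Hspa1b counts (right), with group means as lines and axes from 0. The 3 PT-KO+I/R libraries lie between 12.7 and 13.7 at the left, below the other 9, and the groups overlap at the right.

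To compare the labelled genotypes without injury, PT-KO was set against Ctrl. None of the 10 genes was called by edgeR or DESeq2, where 0.00% of the 15291 genes tested were called by edgeR (2573 had an unadjusted p under 0.05, and DESeq2 called 458). Hspd1 was higher in every PT-KO library than in any Ctrl library, with a log2 difference of 0.31 (SE 0.13, unadjusted p = 0.0416, edgeR adjusted p = 0.28). It was the only member without overlap, where 21.0% of all genes had none. Hspb1 had a log2 difference of -0.68 (SE 0.27, unadjusted p = 0.0339, edgeR adjusted p = 0.268). Without Ctrl library 3 both genes passed, Hspd1 at 0.46 (edgeR adjusted p = 0.00954) and Hspb1 at -0.89 (0.041), and that fit sets all-male PT-KO against the 2 female Ctrl libraries. With sex as a covariate the log2 differences were 0.06 for Hspd1 and -0.17 for Hspb1. The other 8 genes had log2 differences from -0.30 for Hspa8 to 0.17 for Hspa1b.

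To compare the labelled genotypes after injury, PT-KO+I/R was set against Ctrl+I/R, 2 groups of male libraries. Of the 10 genes 3 were called, where 46.9% of the 15281 genes tested were called (22.5% higher and 24.4% lower, or 3444 and 3725 genes, against 1978 higher and 5080 lower with library totals, which put the median of all genes at -0.21). Bag3 was higher by 1.13 on the log2 scale (SE 0.14, edgeR adjusted p = 0.000776, 2.18-fold) and Hspe1 was lower, at -0.67 (SE 0.12, edgeR adjusted p = 0.0034, 0.627 of the level). Both calls were kept without each library in turn and with library totals. With the replicate block the Hspe1 call was lost (edgeR adjusted p = 0.121). That fit compares only libraries 2 and 4 of each group, and it called 1683 genes against 7169. Hspb1 was higher by 1.37 (SE 0.44, edgeR adjusted p = 0.0339, 2.59-fold), with a value of 0.97 when Ctrl+I/R library 4 was left out and of 1.98 when library 2 of that group was. The Hspb1 call was lost with library totals, with the replicate block, and without Ctrl+I/R library 1 or any 1 of the 3 PT-KO+I/R libraries (adjusted p up to 0.102). Bag3, Hspb1, Hspe1 and Dnajb1 had no overlap between the groups, as did 58.7% of all genes.

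The remaining members differed less between the injured groups. Hsp90aa1 had a log2 difference of 0.45 (SE 0.18, edgeR adjusted p = 0.0726). It became 0.66 (0.0038) without Ctrl+I/R library 2, its highest library in that group. Hsp90aa1 was called with DESeq2 and in a single fit to the 12 libraries, with or without sex as a covariate. Both injured groups are male, so the sex term tests nothing between them. Dnajb1 had 0.19 (SE 0.10, edgeR adjusted p = 0.14), and -0.01 with library totals. Hspa1a, Hspa1b, Hsph1, Hspa8 and Hspd1 lay between -0.18 and 0.30 with adjusted p from 0.391 to 0.773. Within Ctrl+I/R, Hspb1 was at 7.78 CPM in library 4, where the injury markers had their lowest sum, 567 CPM, and the link between the 2 was not tested.

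The interaction tested whether the response to I/R differed by genotype, over all 12 libraries. It was called for 3 of the 10 genes, where 30.6% of the 16168 genes tested were called (14.3% higher and 16.4% lower), so over both directions the members' share was near that of all genes. Bag3 responded more in PT-KO by 1.10 on the log2 scale (SE 0.18, edgeR adjusted p = 0.00119), and Hspe1 responded by -0.82 (SE 0.18, edgeR adjusted p = 0.0052). Both were called without each of the 12 libraries in turn and with sex as a covariate, where the values were 1.27 and -0.61 (edgeR adjusted p = 0.00284 and 0.0462). Hspb1 responded more in PT-KO by 2.06 (SE 0.61, edgeR adjusted p = 0.0239). Its call was lost with sex as a covariate (1.54, edgeR adjusted p = 0.182) and when Ctrl library 1 or 2, Ctrl+I/R library 1, PT-KO library 2 or PT-KO+I/R library 4 was left out (up to 0.0587). Leaving out Ctrl+I/R library 4 gave 1.66. Hspa8, at 0.35 (edgeR adjusted p = 0.267), was at 0.72 with sex as a covariate and was then called (edgeR adjusted p = 0.0261), and Hsp90aa1 was called without Ctrl+I/R library 2. Dnajb1 had an interaction of 0.31 (SE 0.13, edgeR adjusted p = 0.0899). The interaction uses the same libraries as the 4 comparisons of groups and is no separate evidence for them.

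The rest of the chaperone network was read from lists chosen with earlier results of these data known. Hsf1, which encodes the factor that activates heat shock genes, was not called after I/R in either genotype. It had a log2 difference of 0.24 after I/R in Ctrl (SE 0.10, edgeR adjusted p = 0.139) and -0.10 in PT-KO (SE 0.13, 0.52), and it was lower in PT-KO+I/R than Ctrl+I/R, at -0.42 (SE 0.13, edgeR adjusted p = 0.0308). That call was lost with the replicate block and in the fits without each of the 6 libraries in turn, except Ctrl+I/R library 4. Of the other 5 small heat shock protein genes, 3 rose in Ctrl and 4 in PT-KO after I/R, and none fell, where 11.4% and 32.9% of all genes rose, with median log2 fold changes of 1.14 and 0.79. The count in Ctrl was 1 without Ctrl library 1 and 2 without Ctrl library 2, where 320 and 343 of all genes rose, against 1778. Cryab, which encodes αB-crystallin, rose by 1.14 in Ctrl and 2.01 in PT-KO on the log2 scale, and it was higher by 0.93 in PT-KO+I/R relative to Ctrl+I/R (edgeR adjusted p = 0.00847). Hspb8, the small heat shock protein that binds BAG3, rose by 1.69 in both genotypes. Hspb7 was called higher in PT-KO+I/R relative to Ctrl+I/R, at 0.95 (edgeR adjusted p = 0.0083). With the replicate block, neither Cryab nor Hspb7 was called between the injured groups.

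The 8 genes of TRiC, the cytosolic counterpart of the mitochondrial chaperonin, rose after I/R in 3 of 8 cases in Ctrl and in 8 of 8 in PT-KO, where 11.4% and 32.9% of all genes rose. Their median log2 fold changes were 0.35 and 0.67, against -0.01 and 0.01 over all genes. Cct3 rose by 0.60 in Ctrl and by 1.14 in PT-KO, and Cct5 by 0.54 and 0.91. Between the injured groups 6 of the 8 were higher in PT-KO+I/R, Cct2 by 0.62 and Cct3 by 0.61, and none was lower. That count was 2 with library totals, 0 with the replicate block and 3 without Ctrl+I/R library 1. Of all genes, 22.5% (3444) were called higher with TMM and all libraries, against 1978, 685 and 2512 genes in those 3 fits. In Ctrl after I/R the count of 3 was 7 with library totals and 0 with sex as a covariate. Of all genes 2346 and 1066 rose there, against 1778. The count was 0 without Ctrl library 1, Ctrl library 2 or Ctrl+I/R library 1, where 320, 343 and 616 of all genes rose. It was 2 without each of the other libraries. In PT-KO it was 7 or 8 with single libraries left out.

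Of 14 other mitochondrial chaperones and proteases none was called after I/R in Ctrl (edgeR; unadjusted p under 0.05 for Trap1, Grpel2 and Afg3l2), where all 14 log2 fold changes were below 0 with a median of -0.17, and 4 were above 0 with library totals. In that comparison 1 gene was called lower in each of 3 fits, with sex as a covariate and when Ctrl+I/R library 1 or 4 was left out. In PT-KO 7 fell and 1 rose, where 32.7% of all genes fell and 32.9% rose, with a median log2 fold change of -0.23. With library totals 7 fell and 3 rose. With single libraries left out, 6 to 8 fell and 1 or 2 rose. Hscb, a J-domain protein of iron-sulfur cluster assembly, fell by 1.44, Dnajc19 by 0.97, and the protease subunit Spg7 by 0.88. Grpel1, the nucleotide exchange factor of mitochondrial HSP70, rose by 0.55. Against Ctrl+I/R, Hscb was lower in PT-KO+I/R at -1.12 (edgeR adjusted p = 0.00176) and Spg7 at -0.52 (0.00298), while Grpel1 was higher at 0.78 (0.00347) and Grpel2 at 0.60 (0.0171). Hspe1, at -0.67 in that comparison, lay between them. With the replicate block, no gene of this list was called between the injured groups.

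Among 18 co-chaperones of HSP70 and HSP90, 5 rose and 1 fell after I/R in Ctrl, where 11.4% of all genes rose and 7.97% fell. The 5 became 1 with sex as a covariate and without Ctrl library 1, Ctrl library 2, Ctrl+I/R library 1 or Ctrl+I/R library 2. They became 8 with library totals. In these fits, in this order, 1066, 320, 343, 616, 1009 and 2346 of all genes rose, against 1778. In PT-KO 7 rose and 4 fell, and 65.5% of all genes were called. Bag2, which inhibits the ubiquitin ligase CHIP, rose by 1.37 and 1.63 on the log2 scale, and Bag4 fell by 0.68 and 0.70. Chordc1, an HSP90 partner, fell in PT-KO by 1.19 and was lower in PT-KO+I/R than Ctrl+I/R at -1.45 (edgeR adjusted p = 0.000168). Among the HSP90 immunophilins, Fkbp5, a glucocorticoid target, and Fkbp4 went opposite ways between those groups. Fkbp5 was higher at 1.81 (edgeR adjusted p = 0.000261) and Fkbp4 lower at -0.73 (0.00171). Of the other cytosolic HSP70, HSP90 and HSP40 genes, 14 of 15 were tested. None was called in Ctrl after I/R (edgeR; 7 had an unadjusted p under 0.05), but 2 rose with library totals, 3 fell with sex as a covariate, and 1 rose and 1 fell with the replicate block. After I/R 6 rose and 3 fell in PT-KO. Hspa4l, an HSP110 relative, rose in PT-KO by 0.99, Hsp90ab1, the constitutive HSP90, by 0.58, and Dnaja1, an HSP70 partner, fell by 0.92.

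**Figure D4:**
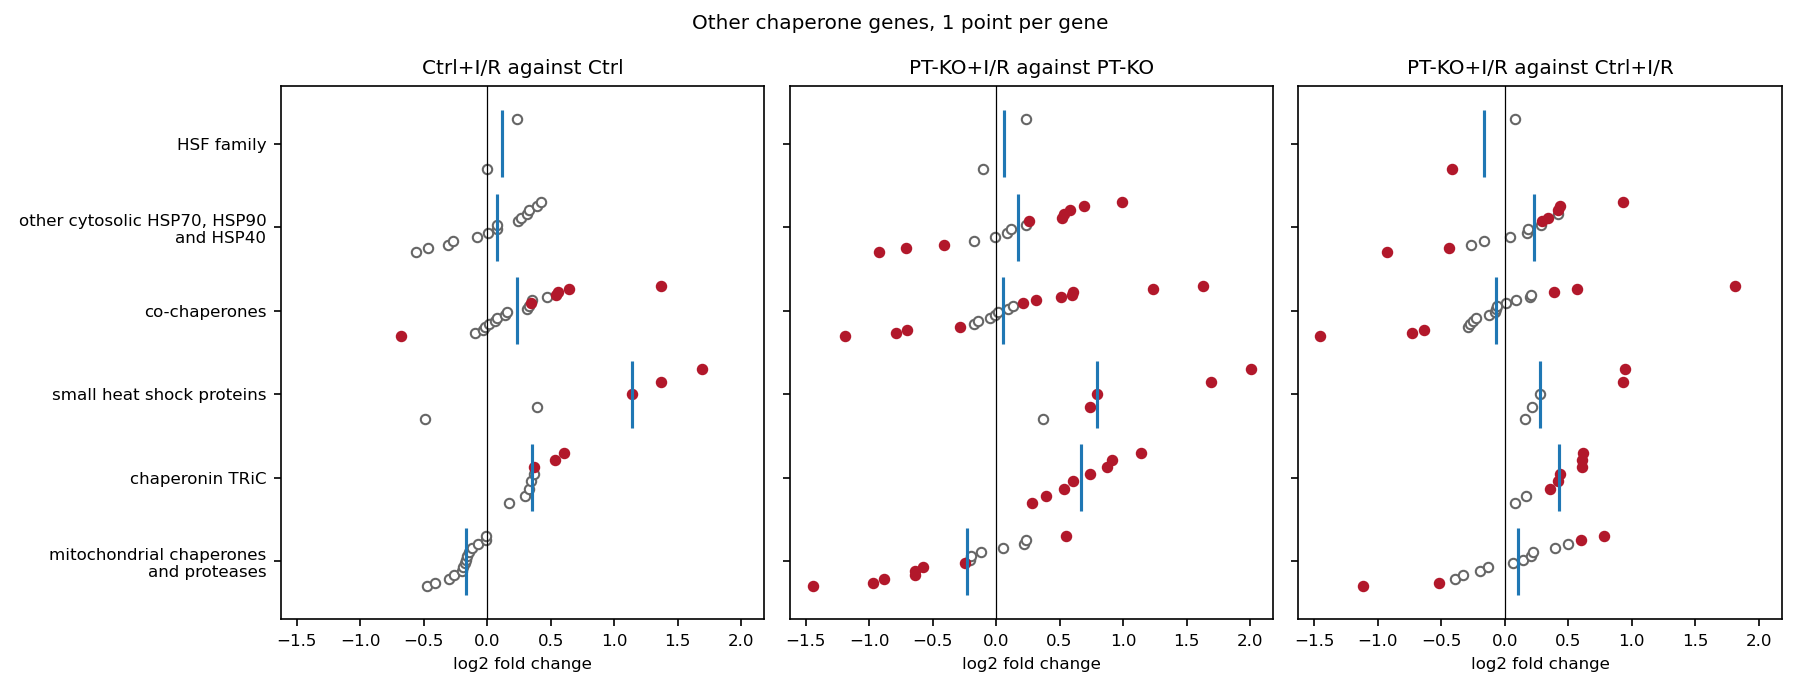
Log2 fold change of the tested genes of the other chaperone lists, with 1 point per gene, a blue line at the list's median and filled points for an edgeR adjusted p under 0.05. All 8 TRiC genes are filled and above 0 in PT-KO after I/R, and the mitochondrial list has filled points on both sides of 0.

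The genes whose levels followed the 8 cytosolic members most closely over the 12 libraries, among 10979 other genes, were Lims1, Cdc42, Gnb1, Pdcd6ip and Rab12. Their root mean square difference from the members' mean profile was 0.09 to 0.11 on the log2 scale. For the mean of Hspd1 and Hspe1 they included Blmh, Hps3, Skp1a and Mrps7, at 0.06 to 0.08. Among the members themselves, Hsph1 was closest to Hspd1 (0.171) and to Hspa8 (0.183), and Hsp90aa1 to Bag3 (0.271). Hspb1 was at least 1.13 from every other member. These distances describe the libraries, which share their injury state, and no test was made of them.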

How the data were processed

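RNA-seq was available for 12 mouse kidney cortex libraries. The authors deposited 1 table of read counts per gene, neither normalized nor filtered; the submitters' processing notes name HISAT2 2.0.4 and mm10, and the counting program, annotation and strand setting are not given in the sources used here. Depth was 12165089 to 23123693 counts per library, and the number of libraries per group, 3, limits the precision. Of the 55487 gene identifiers, 55141 had a symbol and exon length in GENCODE M21 (GRCm38), from which TPM was computed. The 6 libraries of each comparison were fitted in edgeR 4.0.16 (R 4.3.3; filterByExpr, TMM scaling, glmQLFit and glmQLFTest), with Benjamini-Hochberg adjustment over all genes tested and calls under 0.05; the interaction used all 12 libraries. Each SE was derived from the F statistic. The methods were tested on simulated data with 200 changed genes.

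The 10 genes and the lists were chosen with earlier results of these data known. All 10 genes are named, at most 4 called genes of each list per comparison, and Hsf1 always; genes with an unadjusted p were named after their values were seen where 5 or fewer. The alternatives were DESeq2 1.42.0, library totals, median-ratio size factors, no filter, a minimum of 10 counts in all libraries fitted, a common fit to 12 libraries, replicate number as a block, sex as a covariate, Hspa1a and Hspa1b summed, and leaving out each library. Promoter windows came from RefSeq (GRCm38.p6) and were searched for the motif letters given; shared stretches of 100 bases were counted over the GENCODE M21 transcripts with Python 3.11.15.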

Additional observations from a re-analysis of the deposited data

Results flagged for a closer look

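For 3 of the 10 genes the response to I/R differed between the genotypes in the edgeR interaction test. The test called 30.6% of the 16168 genes tested, so the members' share was near that of all genes. Hspb1 responded more in PT-KO by 2.06 on the log2 scale (adjusted p = 0.0239), with a rise of 2.22 in Ctrl and of 4.27 in PT-KO. Bag3 responded more in PT-KO by 1.10 (edgeR adjusted p = 0.00119), where its libraries after I/R were at 61.0, 65.5 and 65.3 CPM against 28.1, 35.5 and 24.0 in Ctrl+I/R. Hspe1 responded by -0.82 (edgeR adjusted p = 0.0052), with 84.9, 73.7 and 81.6 CPM in PT-KO+I/R against 127, 112 and 142 in Ctrl+I/R. The Hspb1 interaction missed the threshold with sex as a covariate, where it was 1.54 (edgeR adjusted p = 0.182). No outlier test was made within groups of 3 libraries.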

How the results depend on the processing

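The count of called members in Ctrl+I/R against Ctrl was 1 with edgeR, 2 with DESeq2 and 2 with library totals. It was 3 in 1 fit to all 12 libraries. Over all genes, these fits called 3019, 4046, 3112 and 4938. With single libraries left out, 0 to 2 members and 379 to 4061 of all genes were called. In PT-KO against Ctrl the count was 0. With single libraries left out it was 0 to 2, where 0 to 1930 of all genes were called. After I/R in PT-KO the same 6 members were called under every alternative, with Hspa8 added under library totals. There 65.5% of all genes were called by edgeR. The interaction called 2 to 4 members: Bag3 and Hspe1 in every fit, Hspb1 in all but the sex covariate (where Hspa8 took its place) and 5 of 12 fits with a library left out, and Hsp90aa1 without Ctrl+I/R library 2. Over all genes, the interaction fits called 3215 to 5509. Of 800 member values under alternatives, 722 kept direction and side of the threshold, 16 passed it newly, 18 lost it and 44 changed sign, and the cause was not tested.

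Replicate numbers did not pair the libraries: same-numbered pairs had a median correlation of residuals of -0.0306, and 1 of 12 pairs was over 0.1. With the replicate block, 3 members were called in Ctrl+I/R against Ctrl (Hspb1, Hsp90aa1 and Bag3) and 1 (Bag3) between the injured groups, where the log2 difference was 1.73 for Hspb1 (edgeR adjusted p = 0.0884) and -0.60 for Hspe1 (0.121). Between the injured groups the block called no small heat shock protein, TRiC, mitochondrial or other cytosolic chaperone gene of the lists, and 2 co-chaperones, against 6 without it. Library totals called 1 co-chaperone higher and 8 lower there (3 and 3 with TMM) and 1 mitochondrial gene higher and 6 lower (2 and 2). The block called 1378 genes in PT-KO against Ctrl, and 1683 against 7169 between the injured groups. In the comparisons with Ctrl, only numbers 1 and 2 occur in both groups, and Ctrl libraries 1 and 2 are female. Sex and I/R or genotype cannot be told apart in those block fits. Between the injured groups only numbers 2 and 4 occur in both, so the other libraries do not inform that block comparison. Of the 12 libraries, 2 correlated best with their own number.

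The changes of sign concerned log2 differences that were not called. With library totals, the values were 0.042 for Hsph1 and 0.032 for Hspd1 in Ctrl+I/R against Ctrl; -0.086 for Hspa1a, -0.019 for Hsp90aa1 and -0.088 for Bag3 in PT-KO against Ctrl; and -0.011 for Dnajb1, -0.158 for Hspa8 and -0.144 for Hspd1 between the injured groups. With sex as a covariate, they were -0.016 for Dnajb1 and -0.190 for Hspe1 in Ctrl+I/R against Ctrl; -0.086 for Hspa1a, -0.192 for Hsp90aa1, -0.140 for Bag3 and -0.058 for Hspe1 in PT-KO against Ctrl; and 0.065 for Hsph1 and 0.011 for Hspd1 in the interaction. With the replicate block, they were 0.083 for Hspa8 and 0.006 for Hspd1 in Ctrl+I/R against Ctrl, and 0.061 for Hsph1 and -0.095 for Hspa1a in PT-KO against Ctrl. Hsph1 was at 0.004 with DESeq2 and with median-ratio size factors in PT-KO against Ctrl. Hspa1a summed with Hspa1b was at -0.007 between the injured groups and at -0.122 in the interaction.

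Leaving out single libraries turned signs within these ranges. In Ctrl+I/R against Ctrl they were -0.170 to 0.039 for Hsph1, -0.170 to 0.064 for Hspd1, -0.260 to 0.079 for Hspa8 and -0.060 to 0.165 for Hspe1. In PT-KO+I/R against PT-KO the range was -0.076 to 0.358 for Hspa1b. In PT-KO against Ctrl they were -0.073 to 0.079 for Hsph1, -0.118 to 0.283 for Hspa1a, -0.037 to 0.125 for Bag3 and -0.019 to 0.416 for Hspa1b. Between the injured groups they were -0.034 to 0.142 for Hspa8, -0.004 to 0.131 for Hspd1, -0.059 to 0.478 for Hspa1a and -0.372 to 0.011 for Hspa1b, and in the interaction -0.093 to 0.449 for Hspa1a. With 3 libraries a group, and at 44 counts in the lowest library for Hspb1, both their number and depth limit the precision.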
